A study of Mus musculus with 4 samples.

Results

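Small nucleolar RNA host genes were followed across mouse embryonic fibroblasts that carried 4 different sets of reprogramming factors. The set comprised 9 hosts chosen by symbol (Gas5, Snhg1, Snhg3, Snhg5, Snhg6, Snhg8, Snhg11, Snhg12 and Snhg18), found in the tables by their Ensembl identifiers. Of these 9, the identifiers of 4 (Gas5, Snhg3, Snhg11 and Snhg12) were among the 27597 genes listed, and the expression of the other 5 was not analysed here, although their start regions and the small RNA genes inside them were examined where sources held them. The fibroblasts were isolated from embryonic skin of strain OGXICR at age D13.5 after removal of the epidermis, grown in serum, and infected with doxycycline-inducible lentivirus in all 4 groups. The control group carried an empty vector. The second carried the genes of SOX2, KLF4 and c-MYC (SKM), the third these 3 with OCT4 (OSKM) and the fourth these 3 with GATA3 (G3SKM), so that OSKM and G3SKM each differed from SKM by 1 added factor. The tables hold 1 number per gene and group, in which 2 replicates are combined. No spread between replicates was available, no test was run, and no p-value is given.

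Small nucleolar RNAs are short nuclear RNAs that guide the methylation and pseudouridylation of ribosomal RNA, and most mammalian ones are cut out of the introns of a longer host transcript. In most of the hosts studied here the spliced exons carry no long conserved reading frame, and in several of them the spliced RNA is engaged by ribosomes and removed by nonsense-mediated decay, so its level also depends on translation. Many such hosts are transcribed from promoters that start the RNA with a run of pyrimidines, as the genes of ribosomal proteins do. Gas5 was named for its accumulation in growth-arrested fibroblasts.

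The start regions of the 4 matched hosts are shown because the 2 features described for such promoters, a TATA element and a pyrimidine run at the start, divided them. Each line gives 60 bases before and 30 bases from the annotated start, 5′ to 3′ on the strand of the gene, from RefSeq (build GRCm38.p6). Capitals mark a match to TATANA and, within 10 bases of the start, a run of at least 5 pyrimidines that begins with C. In order, the windows are chr1:161035106-161035195 (plus strand), chr4:132308618-132308707 (plus strand), chr4:132353657-132353746 (minus strand) and chr2:158375653-158375742 (plus strand).
Gas5: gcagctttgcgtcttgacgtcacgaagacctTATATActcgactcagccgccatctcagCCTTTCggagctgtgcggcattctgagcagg
Snhg12: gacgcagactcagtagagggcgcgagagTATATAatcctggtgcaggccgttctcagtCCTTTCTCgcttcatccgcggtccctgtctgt
Snhg3: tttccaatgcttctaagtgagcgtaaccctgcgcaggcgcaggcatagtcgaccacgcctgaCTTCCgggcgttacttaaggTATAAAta
Snhg11: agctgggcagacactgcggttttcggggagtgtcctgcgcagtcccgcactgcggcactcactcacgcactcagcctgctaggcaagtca

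Gas5 had TATATA 29 bases before its start and a run of 6 pyrimidines across the start. Snhg12 had TATATA 32 bases before its start and a run of 8 pyrimidines. Snhg3 had a run of 5 pyrimidines and no TATANA before its start, where its only match lay 23 bases downstream. The Snhg11 window had neither, and an additional annotated start of Gas5, upstream of the one shown, had neither as well. TATANA was searched on the gene's own strand 45 to 15 bases before the start. It was found in 4 of the 8 hosts with a RefSeq entry (Gas5, Snhg5, Snhg8 and Snhg12), against 3.68% of 32851 mouse promoters. The pyrimidine run was found in 6 of 8 (those 4, Snhg3 and Snhg18), against 34.9%, and both features together in 4 of 8, against 1.35%. CACGTG, the binding letters of c-MYC and its relatives, which read the same on both strands, were in the 300-base windows of 0 of the 8 hosts, against 7.15% of promoters. Each host was counted once, Gas5 by the start shown, whereas the shares count promoters, so the units differ. These matches describe letters in a window and say nothing of use or binding in these cells.

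Values are RPKM, reads per kilobase of the gene's whole span, introns included, scaled to depth. A difference counted as a call past a threshold of 1 in either direction on the scale of log2 ratios of RPKM + 1, provided that 1 of the groups compared reached 1 RPKM. Folds are ratios of the RPKM themselves, with 95% Clopper-Pearson bounds from reads recovered from the values, which cover counting error only. Recovered depth, in M reads (mega-reads), was 54.0 in SKM, 74.7 in OSKM, 102 in G3SKM and 111 in empty vector. The fibroblast label was checked against 11 markers, whose summed RPKM was 864, 643, 377 and 369 in empty vector, SKM, OSKM and G3SKM, with none at 0. Col1a1 and Vim made up most of the sum in empty vector, at 332 and 342 RPKM. Dcn and Lum were highest in OSKM, at 1.21 and 1.16 RPKM, and Col1a1 was highest in SKM, at 352. The rest were highest in empty vector. Summed RPKM of 10 macrophage markers was 34.6 in empty vector and 2.00 to 4.56 in the factor groups, with none at 0. Summed RPKM of 8 keratinocyte markers was 1.58 in empty vector and 49.0 to 103 in the factor groups. Of these, Krt5 was at 0.118 or less and Trp63 at 0.00584 or less in every group. Endothelial markers (5 genes) summed to 0.165 RPKM or less, and erythroid markers (4 genes, 2 of them at 0 in empty vector) to 0.355 or less. The part of these marker differences in the host gene results was not tested, and in bulk RNA fewer cells of a type and less RNA per cell cannot be told apart.

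Gas5 was the highest of the hosts. Its RPKM was 63.7 in G3SKM, 39.6 in OSKM, 36.8 in SKM and 29.7 in empty vector, from 8199 to 26630 reads. G3SKM was the highest group and empty vector the lowest, with SKM and OSKM close together. Snhg12, the host of box H/ACA RNAs and of Snord99, stood at 20.5 RPKM in G3SKM, 13.3 in SKM, 9.93 in OSKM and 7.76 in empty vector. G3SKM was again highest and empty vector lowest, and OSKM lay below SKM. Snhg3, the host of the closely related Snora73a and Snora73b, stood at 9.63 RPKM in G3SKM, 5.63 in SKM, 4.24 in empty vector and 4.12 in OSKM. OSKM and empty vector were nearly level in Snhg3 (fold 0.970, 0.913 to 1.03), so their order was not resolved even by counting error. Snhg11, annotated as protein-coding and best known from neurons, was under 1 RPKM in every group. It was at 0.374 RPKM in G3SKM (399 reads), 0.310 in SKM (176), 0.150 in OSKM (118) and 0.0385 in empty vector (45).

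**Figure D1:**
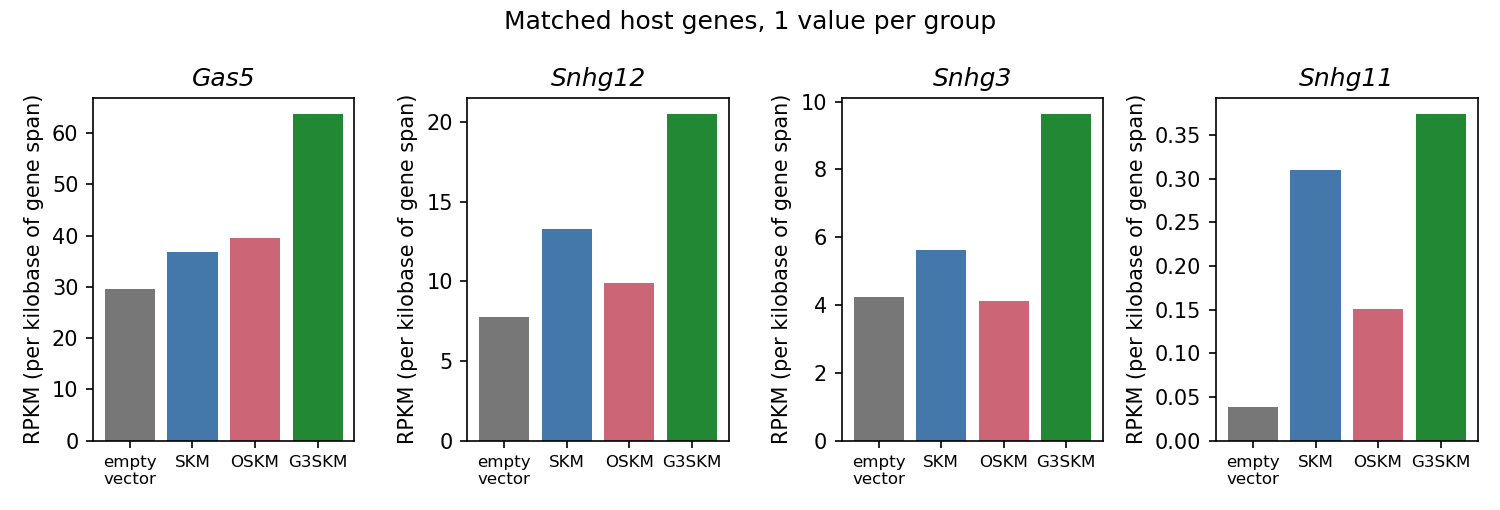
RPKM per kilobase of gene span (vertical axes, each from 0) of Gas5, Snhg12, Snhg3 and Snhg11 in the 4 groups, 1 bar per value, with no error bars because each group has 1 value. G3SKM is the highest bar in all 4 panels, from 63.7 RPKM for Gas5 to 0.374 for Snhg11.

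G3SKM was the highest group for 4 of 4 matched hosts, Snhg11 included at levels under 1 RPKM. For the 3 that reached 1 RPKM in every group the ratio of the highest to the lowest group was 2.15 for Gas5, 2.34 for Snhg3 and 2.64 for Snhg12. Among the 10848 genes that reached 1 RPKM in at least 1 group, which hold these 3 hosts but not Snhg11, G3SKM was highest for 24.3%. That share differed with gene length and class. It was 17.2% among genes with spans of 2000 to 6000 bases, where Gas5, Snhg3 and Snhg12 lie (4118, 5673 and 2402 bases), 45.7% among spans under 500 bases, and 80.7% (176 of 218) among small nucleolar and Cajal body RNA genes.

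The comparison of G3SKM with empty vector gave the most calls. Gas5, Snhg3 and Snhg12 were all called higher, 3 of the 3 past the filter, against 7.06% of all genes called higher and 3.74% called lower. Gas5 rose 2.15-fold (2.10 to 2.19), Snhg3 2.27-fold (2.17 to 2.38) and Snhg12 2.64-fold (2.51 to 2.78). Their log2 ratios were 1.08, 1.02 and 1.30, close to the threshold of 1. Ratios at least as high were found in 5.76% of genes for Gas5, 6.69% for Snhg3 and 3.54% for Snhg12. The median log2 ratio was 1.08 for the 3 hosts and 0.17 for all genes. Relative to that shift, which exceeded 0.1, the ratios were 0.91 for Gas5, 0.85 for Snhg3 and 1.12 for Snhg12, and only Snhg12 remained past the threshold. Snhg11, under the filter, was 9.71-fold (7.12 to 13.52) higher at levels below 1 RPKM. Between the same groups 5 of 8 fibroblast markers past the filter were called lower, 6 of 7 macrophage markers lower and 6 of 6 keratinocyte markers higher. C1qa, C1qb, C1qc, Tyrobp, Fcer1g, Pdgfra and Twist2 passed only through empty vector, and these keratinocyte markers except Perp only through G3SKM. The direction of those markers was therefore fixed by the filter. Krt5 and Trp63 did not pass it.

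G3SKM against SKM compares cells with and without the added GATA3, and here none of the 3 hosts was called (0 of 3), against 4.43% of all genes called higher and 1.1% lower. Gas5 was at a fold of 1.73 (1.69 to 1.77), Snhg3 at 1.71 (1.62 to 1.81), Snhg12 at 1.54 (1.46 to 1.63) and Snhg11 at 1.21 (1.01 to 1.45). The bounds of all 4 folds lay above 1, those of Snhg11 only just. Because the bounds are too narrow, Snhg11 is not resolved from 1 here. The log2 ratios of 0.77, 0.68 and 0.59 for Gas5, Snhg3 and Snhg12 were reached or exceeded by 8.53%, 10.7% and 13.4% of genes, and their median was 0.68 against 0.00 for all genes. Among genes of 2000 to 6000 bases the median was -0.18, and 0.879% were called higher. With the trend of the ratios against GC content removed, these values were smaller, 0.36 for Gas5, 0.27 for Snhg3 and 0.40 for Snhg12.

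OCT4 is the added factor in OSKM against SKM. Again 0 of 3 hosts were called, against 2.55% of all genes called higher and 1.64% lower. Snhg3 was at a fold of 0.732 (0.684 to 0.782) and Snhg12 at 0.748 (0.700 to 0.800), both lower in OSKM beyond counting error. Gas5 was at 1.08 (1.05 to 1.11), on the other side of 1. With the GC trend removed the Gas5 log2 ratio changed sign, from 0.10 to -0.28, and stayed above those of Snhg3 and Snhg12, which went from -0.37 and -0.39 to -0.76 and -0.58. Snhg11 was at a fold of 0.485 (0.381 to 0.616). The hosts' median log2 ratio was -0.37, against -0.01 for all genes.

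The direct comparison of the added factors, OSKM against G3SKM, placed every matched host lower in OSKM. By the rule of size 1 of 3 was called lower, Snhg3, against 2.22% of all genes called lower and 0.724% higher. Snhg3 was 2.34-fold (2.22 to 2.47) higher in G3SKM than in OSKM, Snhg12 2.06-fold (1.96 to 2.18), Gas5 1.61-fold (1.57 to 1.64) and Snhg11 2.49-fold (2.02 to 3.08). The log2 ratio of OSKM to G3SKM was -1.05 for Snhg3, -0.98 for Snhg12 and -0.67 for Gas5. Ratios at least as low were found in 1.97% of genes for Snhg3, 2.42% for Snhg12 and 5.45% for Gas5. All genes had a median of 0.01, and removal of the GC trend left the 3 ratios at -1.06, -1.01 and -0.68, so that Snhg12 then passed the threshold as well.

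SKM against empty vector shows the 3 factors that all factor groups share. In SKM against empty vector 0 of 3 were called, against 8.88% of all genes called higher and 5.98% lower. Snhg12 was at a fold of 1.71 (1.60 to 1.82), Snhg3 at 1.33 (1.25 to 1.41) and Gas5 at 1.24 (1.21 to 1.28). Snhg11 was 8.04-fold (5.77 to 11.4) higher at levels under the filter. The median log2 ratio of 0.34 for the 3 hosts stood beside 0.15 for all genes. With the GC trend removed the ratios of Gas5 and Snhg3 were 0.63 and 0.66 in place of 0.30 and 0.34, and Snhg12 was at 0.71 in place of 0.70.

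In OSKM against empty vector, likewise, 0 of 3 were called, against 4.79% of all genes called higher and 4.14% lower. Gas5 was at a fold of 1.34 (1.30 to 1.37), Snhg12 at 1.28 (1.20 to 1.36), Snhg3 at 0.970 as given above and Snhg11 at 3.90 (2.74 to 5.63). The 3 hosts had a median of 0.32 on the log2 scale, against 0.18 for all genes. Removal of the GC trend gave 0.316 for Gas5, -0.125 for Snhg3 and 0.0948 for Snhg12, in place of 0.406, -0.0354 and 0.319. Comparisons that share the SKM, empty vector or G3SKM values are not independent of each other.

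**Figure D2:**
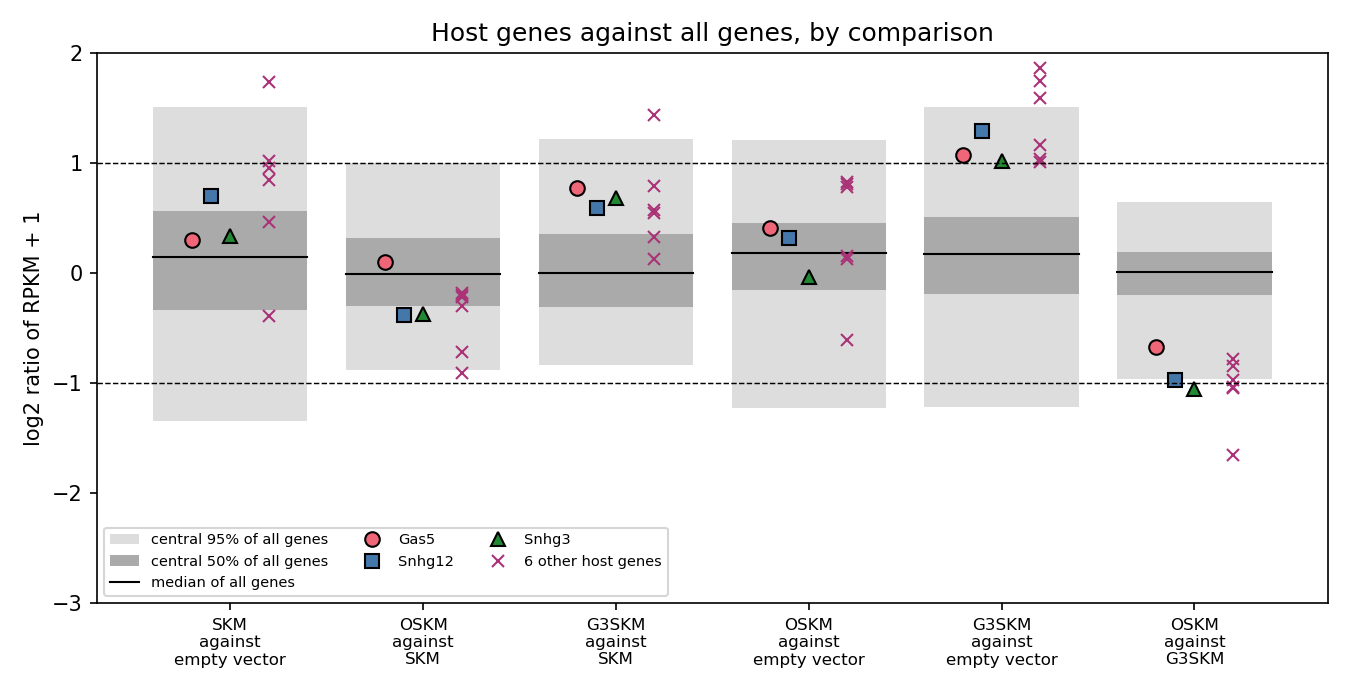
Log2 ratio of RPKM + 1 (vertical axis) in each of the 6 comparisons for Gas5, Snhg12, Snhg3 and 6 other noncoding hosts, over bands that hold the central 50% and 95% of all genes past the filter, with the median as a line and the call thresholds dashed. In G3SKM against empty vector all 9 points lie above the upper threshold, with the lowest, Snhg15, at 1.01, and in OSKM against G3SKM all 9 lie below the band of the central 50%.

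Reads of other genes touch 2 of these loci, and the library preparation described in the labels does not state that strand was kept. Snhg3 lies largely inside Rcc1 on the same strand, and its first part is overlapped in antisense by Gm17300. Rcc1, which exchanges the nucleotide of the GTPase Ran, was at 7.13 RPKM in G3SKM, 6.63 in SKM, 5.69 in OSKM and 4.15 in empty vector. Gm17300 was at 31.1, 15.9, 13.6 and 13.9 RPKM in the same order, a fold of 2.24 (2.14 to 2.35) in G3SKM against empty vector, beside 2.27 for Snhg3. Reads of Snhg3 and these overlapping genes cannot be told apart here. Gas5 overlaps the divergent gene Zbtb37 at its start, and Zbtb37 was between 0.282 and 0.406 RPKM in every group.

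The small RNAs that the hosts carry were listed as genes of their own. In total 24 small RNA genes lay inside 5 of the 9 hosts (Gas5, Snhg1, Snhg3, Snhg12 and Snhg18), the hosts Snhg1 and Snhg18 themselves being unmatched. G3SKM was the highest group for 24 of these 24 genes, against 80.7% (176 of 218) of all small nucleolar and Cajal body RNA genes. The class shares given here include these 24 genes. In G3SKM against empty vector 23 of 24 were called higher, against 65.4% called higher and 0.481% lower of all 208 small nucleolar and Cajal body RNA genes past the filter. In G3SKM against SKM 17 of 24 were called higher, against 41.2% of that class higher and 0.474% lower, and in OSKM against G3SKM 18 of 24 were called lower, against 55.5% lower and 0.474% higher. The class as a whole was shifted in the same direction, with median log2 ratios of 1.25, 0.80 and -1.09 in these 3 comparisons. SKM against empty vector gave 6 higher and 3 lower of 24, against 26.7% and 7.22% of the class. OSKM against SKM gave 5 higher and 3 lower of 24, against 8.29% and 16.0%, and OSKM against empty vector 0 of 23, against 8.77% and 2.92%. Snord123 was under 1 RPKM in empty vector and OSKM. Against these groups it passed the filter only through SKM or G3SKM, so its direction there was fixed by the filter. The same holds for other genes of the class that passed through 1 group only, and their number was not counted.

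Inside Gas5, 9 listed genes summed to 22.6 reads per M (per mega-read of depth) in G3SKM, 11.1 in OSKM, 9.62 in SKM and 8.26 in empty vector. All were annotated in the small nucleolar and Cajal body RNA class, including Mir5117, which bears a microRNA symbol. The sum was 2.74-fold (2.54 to 2.96) higher in G3SKM than in empty vector. Gm22357 had the most reads, at 71.1, 36.4, 31.1 and 29.8 RPKM in that order of groups, and Snord78 followed at 57.9, 39.1, 38.4 and 27.5. Both were highest in G3SKM and lowest in empty vector, as Gas5 itself was. Not all 9 shared that order. Mir5117, Snord80 and Snord47 were lowest in SKM, at 2.45, 4.87 and 4.63 RPKM. Gm22489 and Gm25789 were lowest in OSKM, at 7.46 and 4.82 RPKM. Reads of all 9 small RNA genes equalled 8.63%, 6.81%, 6.34% and 6.76% of those of Gas5 in G3SKM, OSKM, SKM and empty vector. Whether they were also counted in the host is not known, because the counter is not given.

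Inside Snhg12, 4 listed genes (Snora16a, Snora44, Snora61 and Snord99) summed to 8.78 reads per M in G3SKM, 5.50 in SKM, 3.13 in OSKM and 1.91 in empty vector. G3SKM exceeded empty vector 4.61-fold (3.96 to 5.38), a wider difference than the 2.64-fold of the host. Snora61 had the most reads, at 36.3 RPKM in G3SKM, 29.5 in SKM, 14.6 in OSKM and 7.88 in empty vector. As a percentage of Snhg12 reads, reads of these genes were lowest in empty vector (10.2%), at 13.1% in OSKM, and similar in SKM (17.2%) and G3SKM (17.8%).

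Inside Snhg3, Snora73b stood at 36.9 RPKM in G3SKM, 26.8 in SKM, 11.8 in empty vector and 8.53 in OSKM. Its near-identical copy Snora73a stood at 30.8, 23.5, 8.60 and 7.87, and reads may be divided between the copies in either direction. SKM and G3SKM were high for both copies, and empty vector and OSKM low. Their sum was 2.46-fold (2.17 to 2.79) higher in SKM than in empty vector and 3.32-fold (2.99 to 3.69) higher in G3SKM than in empty vector. Relative to Snhg3 reads their sum was 32.1% in SKM, 25.3% in G3SKM, 17.3% in empty vector and 14.3% in OSKM.

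Whether reads of these small RNA genes were also counted in the hosts is not known, and the next values assume that they were. With those reads taken out of the hosts, SKM against empty vector changed most for Snhg3, from a fold of 1.33 to 1.09. OSKM against SKM changed for Snhg3 from 0.732 to 0.923. G3SKM against empty vector stood at 2.10 for Gas5, 2.05 for Snhg3 and 2.42 for Snhg12, and the log2 ratio of Snhg3 then fell under the threshold, at 0.86. OSKM against G3SKM left no host past the threshold, with Snhg3 at -0.86. On that assumption the remaining reads of Gas5, Snhg3 and Snhg12 were still highest in G3SKM.

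The locus of Snhg1 was seen through 8 small RNA genes, whose sum was 19.2 reads per M in G3SKM, 7.29 in empty vector, 6.78 in OSKM and 6.01 in SKM. G3SKM exceeded empty vector 2.63-fold (2.43 to 2.86) and SKM 3.19-fold (2.84 to 3.60). Snord22 had the most reads there, 587 in G3SKM and 220, 135 and 146 in the other groups in that order. Snord123, inside Snhg18, had 35 reads in G3SKM, 10 in SKM, 5 in empty vector and 4 in OSKM, a fold of 7.66 (2.99 to 25.1) over empty vector. No value in all 4 groups was at hand for small RNA genes inside Snhg5, Snhg6, Snhg8 or Snhg11. Sonicated fragments in this protocol were longer than most of these genes, so reads of the mature small RNA and of the unspliced host cannot be told apart.

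**Figure D3:**
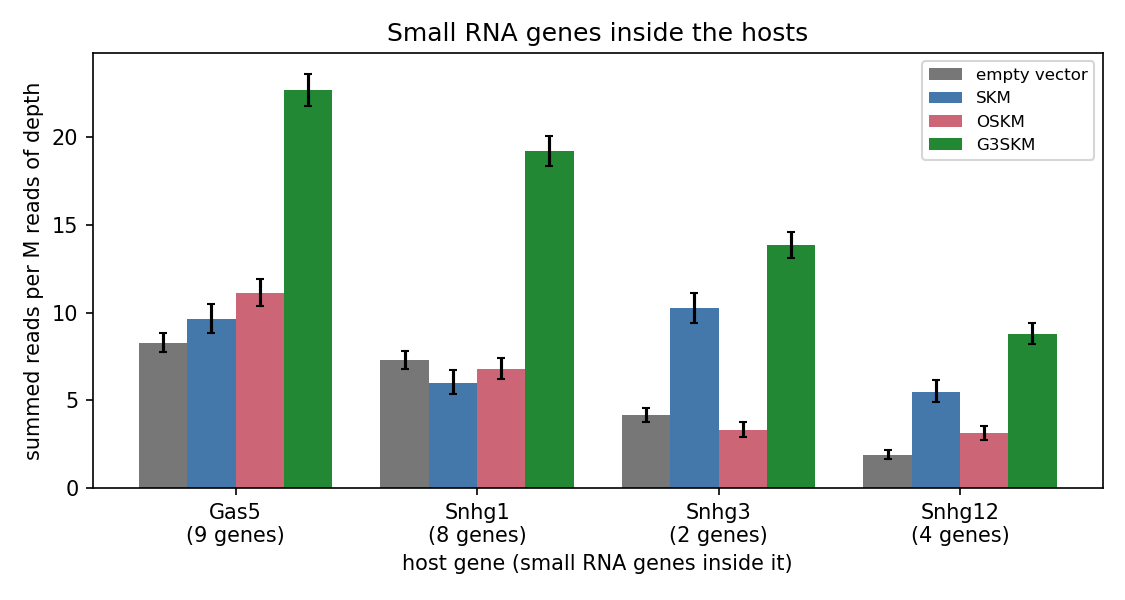
Summed reads per M of depth (vertical axis, from 0) of the small RNA genes inside Gas5, Snhg1, Snhg3 and Snhg12 in the 4 groups, with bars of the 95% Poisson interval, which covers counting error only. G3SKM is highest for each host, at 22.6, 19.2, 13.8 and 8.78, and SKM is second for Snhg3 and Snhg12 but not for Gas5 and Snhg1.

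Of 12 other noncoding hosts looked for, 6 were listed. G3SKM was the highest group for all 6, against 24.3% of all genes that reached 1 RPKM in at least 1 group. Zfas1, the host of Snord12, stood at 12.2, 24.7, 21.7 and 43.4 RPKM in empty vector, SKM, OSKM and G3SKM. Epb41l4aos stood at 9.44, 20.1, 17.3 and 30.5, Snhg9 at 7.48, 5.46, 4.56 and 16.5, and Snhg20 at 2.64, 11.2, 5.48 and 12.3. Snhg15 stood at 4.65, 6.78, 5.31 and 10.4, and Snhg17 at 3.65, 7.35, 4.07 and 9.45. Snhg20 differed from Gas5, Snhg3 and Snhg12 in reaching nearly the same level in SKM as in G3SKM. In G3SKM against empty vector 6 of 6 were called higher, against 7.06% of all genes called higher and 3.74% lower. They ran from 1.01 (Snhg15) to 1.87 (Snhg20) on the log2 scale, with a median of 1.38. In G3SKM against SKM only Snhg9 was called, at 1.43, and in SKM against empty vector Snhg20 (1.74) and Epb41l4aos (1.02). OSKM against G3SKM called Snhg9 (-1.65), Snhg17 (-1.04) and Snhg20 (-1.04) lower. No call was made in OSKM against SKM or OSKM against empty vector (0 of 6 in each). The shares of all genes called higher and lower were 4.43% and 1.1% in G3SKM against SKM, and 8.88% and 5.98% in SKM against empty vector. They were 0.724% and 2.22% in OSKM against G3SKM, 2.55% and 1.64% in OSKM against SKM, and 4.79% and 4.14% in OSKM against empty vector.

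Protein-coding hosts are mostly genes of ribosomal proteins and translation factors, many of which share the pyrimidine start. Of 31 such genes 7 were called higher in G3SKM against empty vector, led by Nop56 (1.45), a core protein of box C/D particles, Eif4a2 (1.24), an RNA helicase of translation initiation, and Rps12 (1.16, shown by Rpl17 as well). Of all genes 7.06% were called higher there and 3.74% lower. The median of these 31 was 0.49, against 1.08 for Gas5, Snhg3 and Snhg12. In G3SKM against SKM 2 of 31 were called higher, Eif4a2 (1.32) and Rpl5 (1.11), with a median of 0.22. The shares of all genes were 4.43% higher and 1.1% lower. SKM against empty vector called Rpl7a (1.26), Nop56 (1.08) and Eef2 (1.05) higher, 3 of 31, against 8.88% of all genes higher and 5.98% lower. OSKM against empty vector called Nop56 (1.04), 1 of 31, against 4.79% higher and 4.14% lower. The counts against SKM and in these comparisons were near the shares of all genes. In OSKM against SKM and OSKM against G3SKM 0 of 31 were called, the latter with a median of -0.23 against -0.98 for Gas5, Snhg3 and Snhg12. Of all genes 2.55% and 0.724% were called higher in these comparisons, and 1.64% and 2.22% lower.

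Proteins that bind and assemble small nucleolar RNAs were called only in the 3 comparisons with empty vector. For SKM, OSKM and G3SKM in that order, 8.88%, 4.79% and 7.06% of all genes were called higher there, and 5.98%, 4.14% and 3.74% lower. SKM against empty vector called 6 of 13 higher, led by Nhp2 (1.47), a protein of box H/ACA particles, Ruvbl2 (1.43), an assembly ATPase, and Nolc1 (1.38), a nucleolar chaperone. OSKM against empty vector called 5 of 14, led by Nop10 (1.54), and G3SKM against empty vector 3 of 16, Nop10 (1.50), Nop56 (1.45) and Znhit3 (1.02). In G3SKM against SKM and in OSKM against G3SKM 0 of 16 were called, with medians of 0.21 and -0.05, and in OSKM against SKM 0 of 14. Of all genes 4.43%, 0.724% and 2.55% were called higher there, and 1.1%, 2.22% and 1.64% lower. In these 3 comparisons the medians of Gas5, Snhg3 and Snhg12 were 0.68, -0.98 and -0.37.

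Factors of nonsense-mediated decay gave 1 call in all 6 comparisons, Upf1 higher in SKM against empty vector (1.13, 1 of 11). In G3SKM against empty vector 0 of 11 were called, with a median of 0.26. Of all genes 8.88% and 7.06% were called higher in SKM and G3SKM against empty vector, and 5.98% and 3.74% lower. The 9 transcripts known as targets of this decay were not called in 1 direction. G3SKM against empty vector called Tbl2 higher (1.06) and Gadd45b (-2.14) and Gadd45a (-1.53), which are also induced by stress, lower. SKM against empty vector called the same 3 genes, at 1.14, -1.97 and -1.13. OSKM against empty vector called Gadd45b (-1.85), Gadd45a (-1.36) and Ddit3 (-1.08) lower, and G3SKM against SKM called Srsf3 higher (1.07). Of all genes 4.79% and 4.43% were called higher in OSKM against empty vector and G3SKM against SKM, and 4.14% and 1.1% lower.

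**Figure D4:**
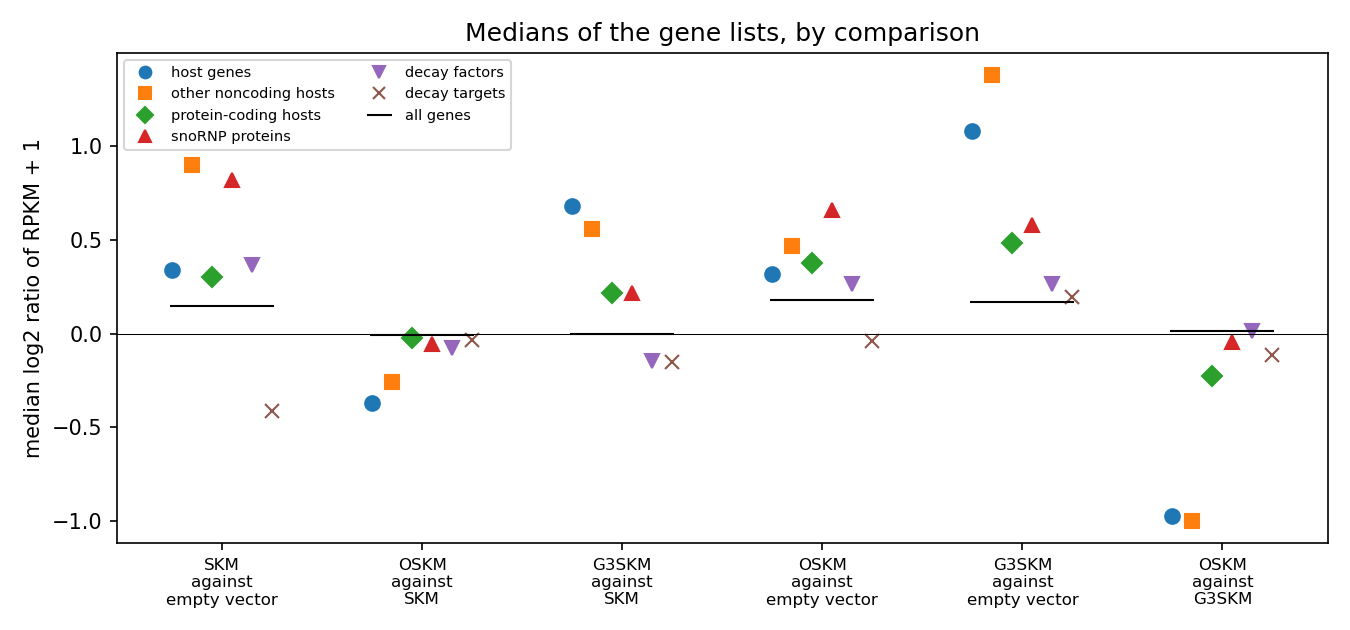
Median log2 ratio of RPKM + 1 (vertical axis) of the genes past the filter in each list, by comparison, with the median of all genes as a line. In G3SKM against empty vector the noncoding hosts lie at 1.08 and 1.38, above the protein-coding hosts at 0.49 and the particle proteins at 0.58.

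The mean profile of Gas5, Snhg3 and Snhg12, each as log2 of RPKM + 1 less its own mean over the groups, was 0.68 in G3SKM, 0.00 in SKM, -0.22 in OSKM and -0.45 in empty vector. The 3 hosts lay at Euclidean distances of 0.234, 0.189 and 0.188 from it. The genes compared with it were 5160 protein-coding or long noncoding genes with a symbol of their own, no members, at 1 RPKM or more in all 4 groups. The nearest was another host, Snhg15, at 0.11. The other listed hosts ranked lower, Snhg17 at 63, Epb41l4aos at 152, Zfas1 at 178, Snhg9 at 1604 and Snhg20 at 2639 of 5160. Next came Atp5e, a subunit of the mitochondrial ATP synthase, at 0.13, the ribosomal protein gene Rpl34 at 0.152, Smim26 at 0.169 and Rabggtb, a subunit of the enzyme that adds geranylgeranyl groups to Rab proteins, at 0.184. Atp5e stood at 74.0 RPKM in G3SKM, 48.6 in SKM, 37.3 in OSKM and 35.3 in empty vector. The likeness rests on 4 values per gene from the same libraries and is a description.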

How the data were processed

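RNA-seq values of 4 groups came from 3 tables, each of which sets SKM beside 1 other group. The authors deposited RPKM, per the file headers, with the log2 of the ratio of the RPKM columns (recomputed within 0.0017). Per the submitters' processing notes, TopHat 1.3.0 and mm9 were used. Not given in the sources used here are the counter, the annotation and how replicates were combined. The SKM column was identical in the 3 tables, which joined the other columns on 1 scale. A value of 0.001 was read as 0, and 0 columns were left unused.

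Symbols, spans, exon lengths and GC content came from GENCODE M21 and were found for 91.0% of genes. Its build is later than the authors', so no gene coordinates are given apart from the RefSeq start regions. RPKM multiplied by the gene's span fell on whole multiples of 1 step per column for 74.0% to 75.8% of genes (tolerance 0.05 of a read, against 10% by chance), which gave depth and reads. Gas5, Snhg3 and Snhg12 were off whole multiples, so their reads and bounds are approximate. All bounds are too narrow, because PCR copies of a molecule are counted as separate reads.

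The members, the gene lists and the rules were chosen with earlier results of these data known. Named were all members, up to 3 genes called higher and 3 lower per list and comparison, and the 5 genes nearest in profile. The small RNA gene of most reads inside each host was named as well. Inside Gas5, Snord78 was added for its own symbol, and the genes with another lowest group than Gas5 were added too. Gene lists are described by counts and medians. Alternatives were a pseudocount of 0.1 or 5 RPKM, no filter or one of 5 RPKM, centring on the median, removal of the trend with GC content in 20 bins and exon length in place of span. Exon length with the GC trend removed, and removal of the reads of small RNA genes, were chosen after seeing the data. The removal assumes that those reads had been counted in the hosts. The call rule and the recovery of depth were tested on simulated reads. The planted folds were larger than those of Gas5, Snhg3 and Snhg12, so calls near the threshold were not tested. Python 3.11.15, pandas 2.3.3, numpy 2.4.6, SciPy 1.17.1 and matplotlib 3.10.9 were used.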

Additional observations from a re-analysis of the deposited data

How the results depend on the processing

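No paired analysis was possible because each group has 1 value that stands for 2 replicates combined, and for the same reason no replicate could be left out. The 3 hosts called higher in G3SKM against empty vector lay just past the threshold, and the count became 0 with a pseudocount of 5 RPKM, 1 after centring on the median, 1 with the GC trend removed, 2 with exon length and the GC trend removed, and 2 with the reads of small RNA genes taken out. It was 3 under the other alternatives run. The single call of OSKM against G3SKM became 2 with a pseudocount of 0.1 RPKM, 0 with a pseudocount of 5 RPKM, 2 with the GC trend removed, 2 with exon length and the GC trend removed, and 0 with the reads of small RNA genes taken out. In the other 4 comparisons the count was 0 under every alternative run. The cause of these changes was not tested. A pseudocount of 5 RPKM by construction shrinks ratios, the more so the lower the gene. In G3SKM against empty vector it left Snhg3 at 0.662, and Gas5 and Snhg12 just under the threshold, at 0.987 and 0.999. The direction of Gas5, Snhg3 and Snhg12 held under every alternative run, except for Gas5 in OSKM against SKM, which turned to -0.28 with the GC trend removed and -0.40 with exon length as well, and Snhg3 in OSKM against empty vector, which moved from -0.04 to 0.01 with the reads of small RNA genes taken out. Depth limits Snhg11 and Snord123, which rest on 4 to 399 reads per group. It also limits calls of small RNA genes that rest on few SKM reads. The 5 called higher in OSKM against SKM had 6 to 21 reads in SKM. The 3 called lower in SKM against empty vector had 6 to 17 there.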
